A study of Mus musculus with 18 samples.

Results

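The genes described here encode the nuclear lamina and the linker of nucleoskeleton and cytoskeleton (LINC) complex. Their 10 members are a list of gene names, set with earlier results of these data known, out of the 29875 genes of the deposited count table. They are the lamin genes Lmna, Lmnb1, and Lmnb2, the inner nuclear membrane genes Lbr and Emd, the SUN genes Sun1 and Sun2, and the nesprin genes Syne1, Syne2, and Syne3. All 10 passed the filter on low counts and were among the 13844 genes tested. The counts come from bone marrow-derived dendritic cells (DCs) of wild-type C57Bl6/J mice aged 8 to 12 weeks. The cells were grown with GM-CSF from a hybridoma supernatant and matured with lipopolysaccharide (LPS) at 200 ng/ml. DCs were placed in chambers in bovine collagen gels of 1.7, 2.6, 3.5, or 4.4 mg/ml or in suspension without collagen, and RNA was taken 5 hours after CCL19, a chemokine that attracts mature DCs, was applied. Each of the 4 collagen groups and 2 suspension groups has 3 libraries, 18 in all. The 2 suspension groups are titled plus CCL19 and without CCL19, but the library names give the reverse, so the groups are named by title and what CCL19 does is not described. All cells were LPS-matured and none carried a gene deletion. Such cultures are mixed, and in RNA from whole wells fewer cells of a type and less RNA per cell cannot be told apart.

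The lamina is a mesh of A-type lamins, made from Lmna, and B-type lamins, made from Lmnb1 and Lmnb2, that lies under the inner nuclear membrane. The lamin B receptor (Lbr) and emerin (Emd) sit in that membrane and hold the lamina and chromatin to it. SUN proteins span the inner membrane and bind the KASH domains of nesprins in the outer membrane, and nesprins reach actin, microtubule motors, or plectin in the cytoplasm. A-type lamins are known to make nuclei stiff, and the nucleus is the largest and stiffest body that a migrating leukocyte must squeeze through a pore.

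Libraries held between 13062944 and 28059839 counts. No library had counts identical to those of another. The library names show 1 date and 1 sequencing lane for each replicate number, so the replicate is a batch with every group in it once. Each comparison was therefore fitted without and with the replicate number as a block. The 12 markers of mature DCs together reached 29640 to 104200 CPM (counts scaled to the library total) in the 18 libraries, and markers of lymphocytes at most 11.4 CPM. The 10 eosinophil markers were lower in collagen. Their sum ranged from 121 to 1385 CPM in suspension and from 14.8 to 171 CPM in collagen, and 9 of the 9 that could be tested were called lower. Of the mature DC markers, Cd80 was called higher and Flt3 lower, and with the block Itgax was called higher as well. Of 11 neutrophil markers, Ly6g, Retnlg, and Cxcr2 were called lower in both fits, and the others were not called. The sum of the 11 ranged from 642.5 to 9795 CPM in suspension and from 1058 to 5184 CPM in collagen. Of 7 basophil and mast cell markers, Kit was called lower, joined by Ms4a2 and Prss34 with the block. Of all genes, 12.4% were called lower without the block and 19.3% with it. Of 8 macrophage markers, none was called without the block, and Adgre1, C1qa, C1qb, C1qc, and Fcgr1 were called higher with it, 5 of 8 beside 15.6% of all genes. Of 12 proliferation markers, none was called in either fit. The part of these markers in the results below was not tested.

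Expression per length differed widely among the 10 genes. Counts per kilobase of exon, scaled to the same total in each library as TPM is, placed Emd first at 256 ± 33.0 (SD, n = 18). Lmna at 85.2 ± 30.1 and Sun2 at 70.8 ± 23.2 followed, and each was the higher of the pair in 9 of 18 libraries, so their order is not resolved. Lmnb1 had 13.3 ± 4.85, Sun1 8.17 ± 5.18, Lmnb2 6.30 ± 4.46, and Lbr 3.90 ± 2.79. Across libraries, the ranges of mean ± SD overlapped between neighbors in this order. Within libraries, Lmnb1 was above Sun1 in 16 of 18, Sun1 above Lmnb2 in 13, Lmnb2 above Lbr in 14, and Lbr above Syne1 in 15. Nesprins had the lowest means on this scale, with Syne1 at 2.50 ± 2.08, Syne3 at 1.31 ± 1.01, and Syne2 at 1.15 ± 0.990. Syne3 was above Syne2 in 9 of 18 libraries. The union of exons is 40491 bases for Syne1 and 26726 for Syne2, which have many isoforms, so a short isoform would be underrated by this scale.

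**Figure D1:**
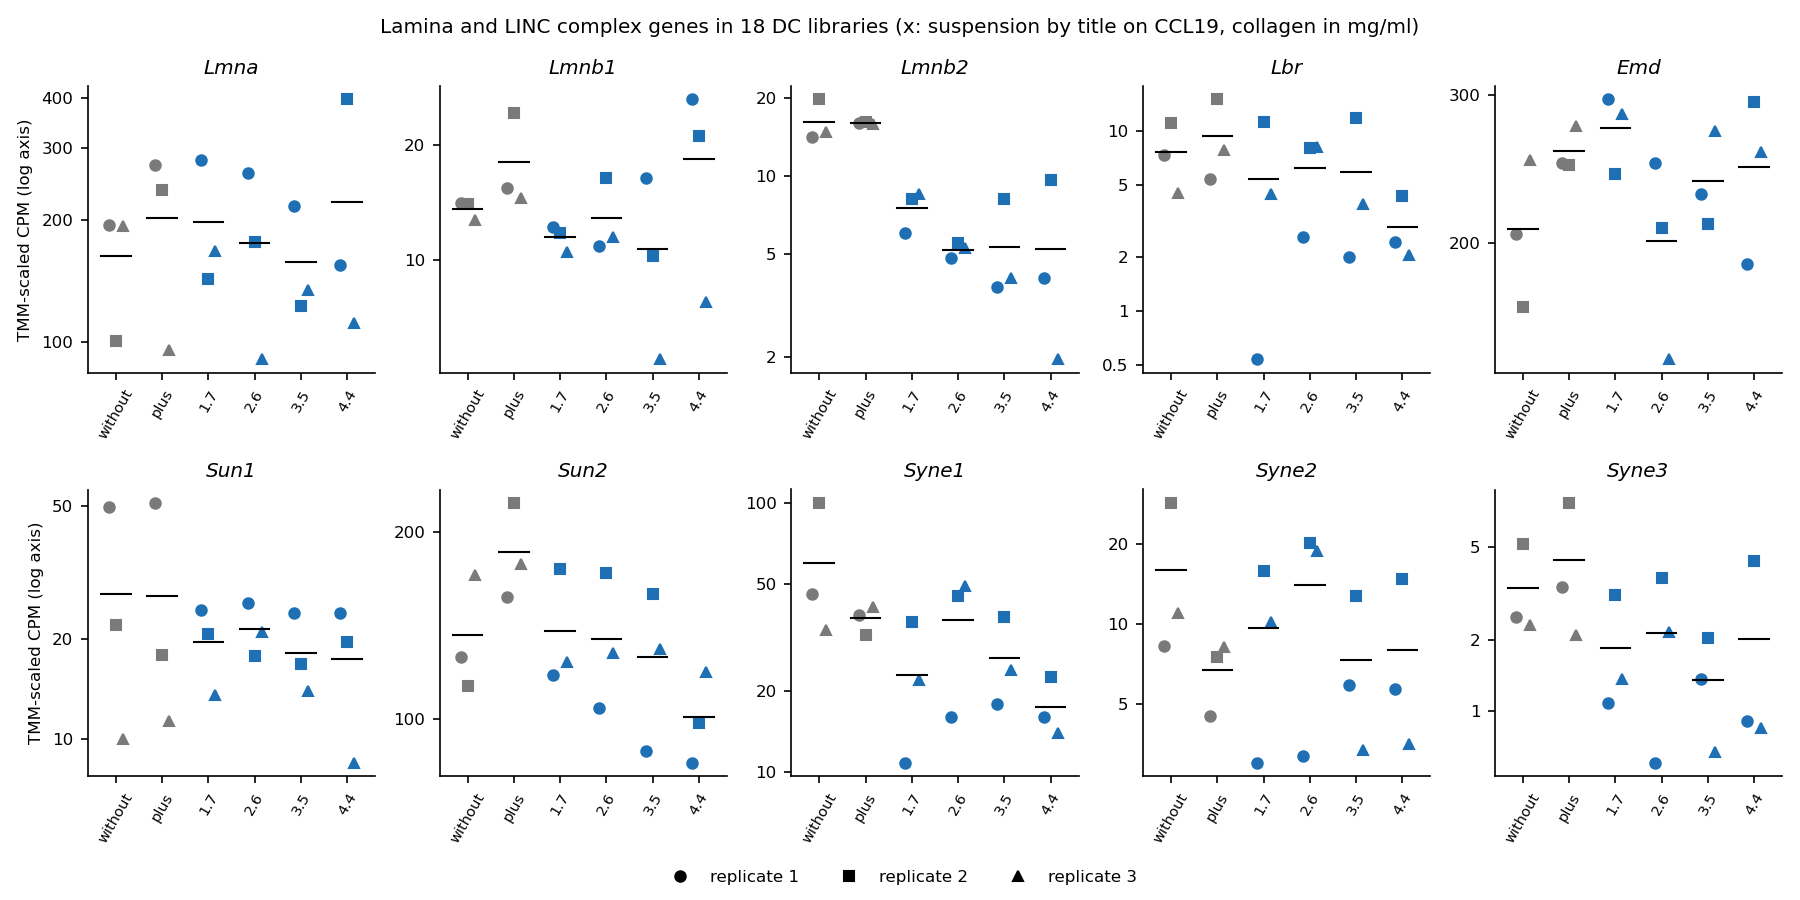
TMM-scaled CPM of the 10 genes on log axes in the 18 libraries. The x axis gives the suspension groups by their titles (without and plus CCL19, gray) and the collagen densities in mg/ml (blue), each point is a library, its shape the replicate number, and bars are group means of 3 libraries. Of these 10 genes, Lmnb2 is the gene whose 6 suspension libraries, at 14.1 to 19.9 CPM, all lie above its 12 collagen libraries, at 1.95 to 9.65 CPM. The share of all genes that separate in this way was not counted.

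Lmnb2 (ENSMUSG00000062075), which encodes lamin B2, showed the clearest difference of the lamins. It lies at chr10:80901203-80918245 on the minus strand (GRCm38). In suspension, CPM had a low of 14.1, a median of 16.0, and a high of 19.9 over 6 libraries. At 1.7 mg/ml, the 3 libraries had 6.01, 8.13, and 8.51 CPM, and at 2.6 mg/ml 4.80, 5.49, and 5.27 CPM. At 3.5 mg/ml they had 3.70, 8.15, and 4.02 CPM, and at 4.4 mg/ml 4.02, 9.65, and 1.95 CPM. Every collagen library was below every suspension library. The share of all genes with such a separation was not counted. Averaged over the groups, Lmnb2 was 2.82-fold lower in collagen, a log2 change of -1.50 ± 0.26 (SE; 95% interval -2.05 to -0.94; edgeR quasi-likelihood test, adjusted p = 0.0021). The log2 difference of CPM was -1.70, -1.21, and -1.80 within replicates 1, 2, and 3. An exact two-sided permutation test over the 12 and 6 libraries gave p = 0.000108, the smallest that this test can give. Between 39 and 168 counts supported the collagen values. The eosinophil markers fell as well, and their sums did not overlap between conditions within any replicate. In suspension, Lmnb2 was at 14.1, 16.0, 19.9, 14.8, 15.9, and 16.2 CPM in the libraries with eosinophil sums of 121, 152.5, 198.5, 525, 978, and 1385 CPM. In collagen, the 3 libraries with the highest sums, of 171, 116, and 100.1 CPM, had 9.65, 8.15, and 5.49 CPM of Lmnb2, and the 3 with the lowest, of 14.8, 26.2, and 34.5 CPM, had 5.27, 1.95, and 4.02 CPM. The highest and lowest Lmnb2 in collagen lay at sums of 171 and 26.2 CPM, and the library with the lowest sum, 14.8 CPM, had 5.27 CPM. The 3 collagen libraries with the highest sums were all of replicate 2. The part of these cells in the change of Lmnb2 was not tested.

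**Figure D2:**
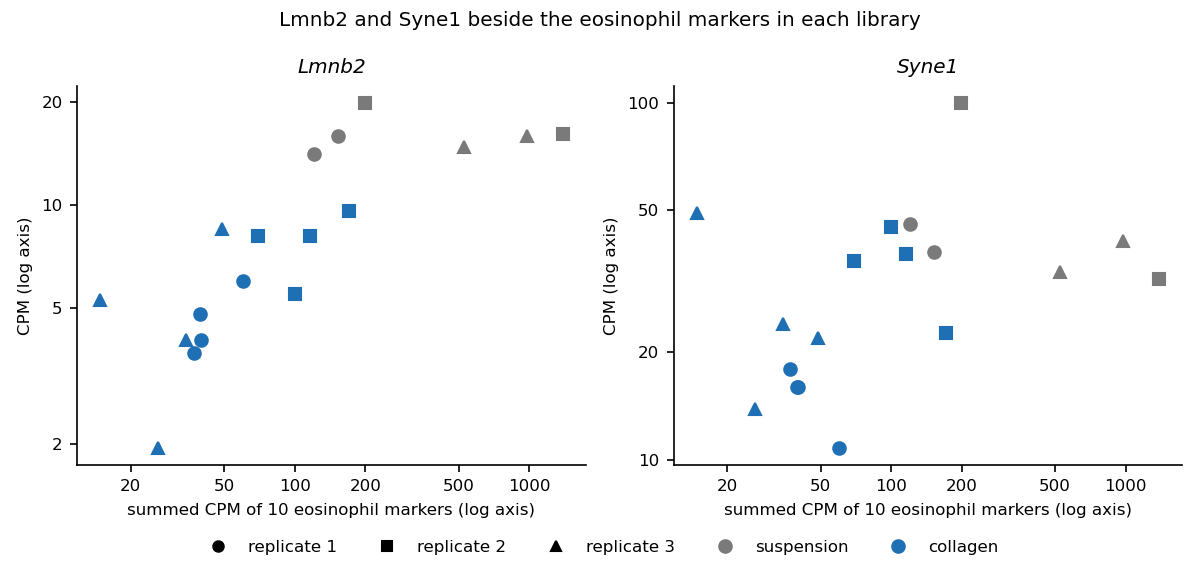
CPM of Lmnb2 (left) and Syne1 (right) against the summed CPM of 10 eosinophil markers, all on log axes, for 6 suspension (gray) and 12 collagen libraries (blue), with the replicate number as the shape. In suspension Lmnb2 lies between 14.1 and 19.9 CPM over marker sums of 121 to 1385 CPM, and in collagen between 1.95 and 9.65 CPM over sums of 14.8 to 171 CPM.

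Lmnb1, the other B-type lamin gene, on chromosome 18, was not called. Its suspension libraries had a low of 12.8, a median of 14.3, and a high of 24.3 CPM, and its collagen libraries a low of 5.51, a median of 11.6, and a high of 26.4 CPM. Of 12 collagen libraries, 8 were below the lowest suspension library and 1 was above the highest. At 4.4 mg/ml alone, the libraries spread from 7.79 to 26.4 CPM. The log2 change was -0.26 ± 0.26 (95% interval -0.80 to 0.28; edgeR adjusted p = 0.55).

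Lmna, which gives lamins A and C, did not pass the test in either fit. In suspension it had a low of 95.1, a median of 193, and a high of 273 CPM, and in collagen a low of 90.3, a median of 161, and a high of 397 CPM. The groups overlapped almost fully. The log2 change was 0.04 ± 0.31 (95% interval -0.62 to 0.70; edgeR adjusted p = 0.95), which does not exclude changes of that size in either direction. At 4.4 mg/ml, replicates 1 and 3 had 155 and 111 CPM and replicate 2 had 397 CPM, the highest of the 18 libraries. Within replicate 2, the log2 difference between 4.4 mg/ml and suspension was 1.37, against -0.57 and -0.28 in replicates 1 and 3. Without that library, the log2 change of Lmna at 4.4 mg/ml against suspension went from 0.29 to -0.45 and was not called (edgeR adjusted p = 0.63).

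The ratio of A-type to B-type lamin transcripts was computed per length in each library, as a description without a test. Lmna exceeded Lmnb1 by a median of 5.95 in suspension (3.32 to 8.96) and of 6.96 in collagen (2.97 to 12.3), and these ranges overlapped. Lmna exceeded Lmnb2 by a median of 9.84 in suspension (3.71 to 12.6) and of 26.4 in collagen (11.0 to 42.9). For Lmna over the sum of Lmnb1 and Lmnb2, the median was 3.75 in suspension (1.83 to 5.23) and 5.47 in collagen (2.69 to 9.28). Lmnb1 exceeded Lmnb2 by a median of 1.36 in suspension (1.03 to 2.17) and of 3.16 in collagen (1.79 to 9.51). The ranges of suspension and collagen overlapped for all 4 ratios.

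**Figure D3:**
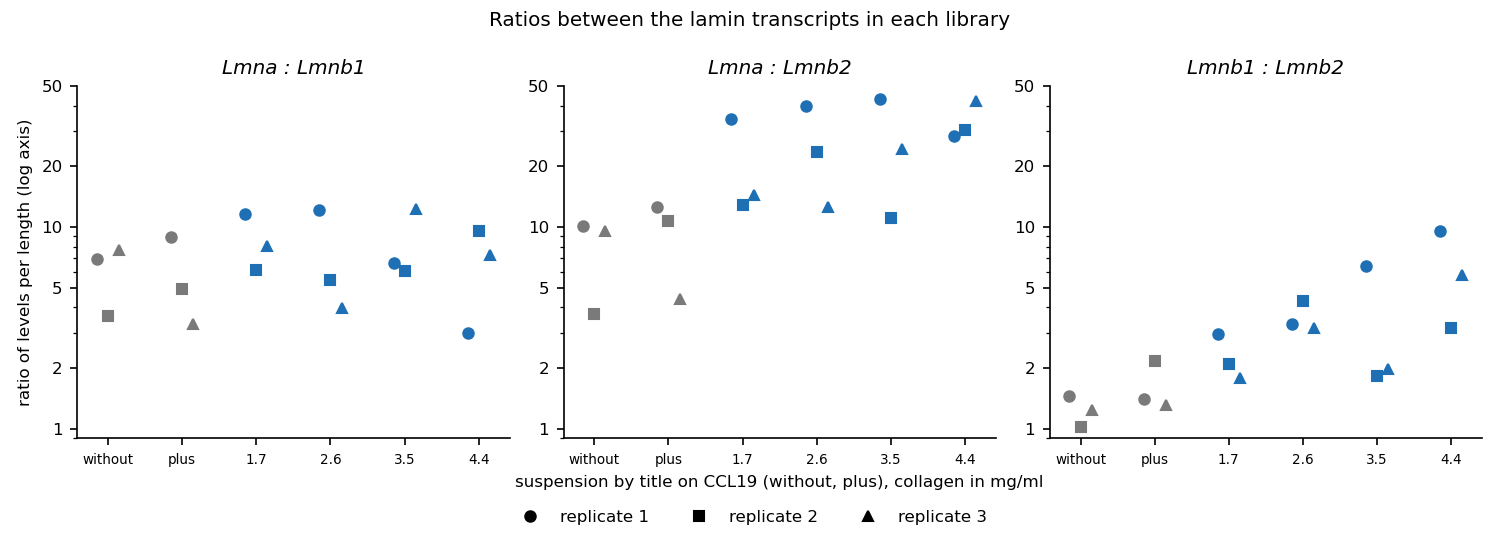
Ratios of lamin transcript levels per exon length on log axes, Lmna to Lmnb1, Lmna to Lmnb2, and Lmnb1 to Lmnb2, in each of 18 libraries by group (suspension gray, collagen blue, in mg/ml) and replicate number (shape). Lmna to Lmnb2 runs from 3.71 to 12.6 in suspension and from 11.0 to 42.9 in collagen, and the ranges of suspension and collagen overlap for each of the ratios.

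Of the inner membrane genes, Lbr was called lower in collagen with the replicate block and not without it, and Emd was called in neither fit. Lbr (chr1:181815335-181843046, minus strand) encodes a protein that binds B-type lamins and heterochromatin and also has sterol reductase activity. In suspension it had a low of 4.52, a median of 7.63, and a high of 15.1 CPM. The collagen libraries of replicate 1 had 0.539, 2.58, 1.99, and 2.44 CPM from the lowest to the highest density, those of replicate 2 had 11.2, 8.10, 11.8, and 4.35 CPM, and those of replicate 3 had 4.47, 8.12, 3.95, and 2.05 CPM. The lowest value rests on 7 counts. Replicate 2 was the highest in both conditions, and 8 of 12 collagen libraries were below the lowest suspension library. The log2 change was -0.79 ± 0.47 (edgeR adjusted p = 0.30), and with the block -0.95 ± 0.31 (95% interval -1.60 to -0.30; adjusted p = 0.031). Without replicate 1, whose log2 difference was -1.88 against -0.64 and -0.51 in replicates 2 and 3, the blocked call was lost (adjusted p = 0.21). Lbr overlaps Dnah14 on the opposite strand, and whether counting used the strand is not given in the sources used here.

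Emd, the emerin gene on the X chromosome, had a low of 168, a median of 249, and a high of 276 CPM in suspension and a low of 145, a median of 245, and a high of 297 CPM in collagen. Its log2 change of 0.04 ± 0.16 had the narrowest interval of the 10 genes in the fit without the block (95% interval -0.30 to 0.38; edgeR adjusted p = 0.90). A pseudogene on the same strand, Gm14686, overlaps it.

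Among the SUN genes, Sun2 was called lower in collagen with the replicate block and not without it, and Sun1 was called in neither fit. Sun2 (chr15:79724070-79742536, minus strand) had a low of 113, a median of 164, and a high of 223 CPM in suspension and a low of 84.9, a median of 121, and a high of 174 CPM in collagen. At 4.4 mg/ml, its libraries had 84.9, 98.5, and 119 CPM, of which 119 lay above the lowest suspension library. The log2 change over all collagen groups was -0.36 ± 0.18 (edgeR adjusted p = 0.19), and with the block -0.38 ± 0.14 (adjusted p = 0.053). Replicates 1, 2, and 3 showed differences of -0.52, -0.11, and -0.48. With GC and length offsets beside the block, the change of Sun2 was 0.003 (adjusted p = 0.99), and without replicate 1 or 3 the blocked call was lost (adjusted p = 0.43 and 0.22).

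Sun1 was high in the suspension libraries of replicate 1, at 49.9 and 51.3 CPM, against 22.1 and 17.9 CPM in replicate 2 and 10.0 and 11.3 CPM in replicate 3. Its collagen libraries had a low of 8.49, a median of 20.1, and a high of 25.6 CPM. The log2 difference was -1.04 in replicate 1, -0.09 in replicate 2, and 0.34 in replicate 3. The fit gave -0.51 ± 0.34 (edgeR adjusted p = 0.36) and, without replicate 1, 0.14. With the block, Sun1 was called lower when replicate 3 was left out, where 25.5% of all genes were called.

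Of the nesprin genes, Syne1 was called lower in collagen in both edgeR fits, Syne3 with the block, and Syne2 in neither. Syne1 (chr10:5020917-5551482, minus strand) encodes nesprin-1, a giant protein that reaches actin. Its suspension libraries had a low of 32.2, a median of 39.7, and a high of 100 CPM. In collagen, the libraries had 10.8, 36.0, and 22.0 CPM at 1.7 mg/ml and 16.0, 45.0, and 49.3 CPM at 2.6 mg/ml. They had 17.9, 37.7, and 24.0 CPM at 3.5 mg/ml and 16.0, 22.6, and 13.9 CPM at 4.4 mg/ml. In all, 8 of 12 collagen libraries were below the lowest suspension library, among them the 3 at 4.4 mg/ml. Syne1 was 1.89-fold lower in collagen, a log2 change of -0.92 ± 0.29 (95% interval -1.53 to -0.30; edgeR adjusted p = 0.048). The permutation test gave p = 0.014 (exact, two-sided), not adjusted for the 10 members. The difference was -1.48, -0.73, and -0.60 within replicates 1, 2, and 3. Without the block, leaving out replicate 1, 2, or 3 ended the call (adjusted p = 0.17, 0.15, and 0.15), and with the block it was kept in each case (adjusted p = 0.078, 0.017, and 0.0076). As beside Lmnb2, the eosinophil markers were lower in the same libraries, and their part was not tested. In the collagen libraries with the 3 highest eosinophil sums, named for Lmnb2, Syne1 was at 22.6, 37.7, and 45.0 CPM, and in those with the 3 lowest at 49.3, 13.9, and 24.0 CPM.

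Syne3 encodes nesprin-3, which binds plectin. It was among the lowest of the 10 genes, with 9 to 113 counts a library. Suspension libraries had a low of 2.12, a median of 2.94, and a high of 7.72 CPM, and collagen libraries a low of 0.600, a median of 1.37, and a high of 4.35 CPM. The log2 change was -1.07 ± 0.45 (edgeR adjusted p = 0.13) and -1.11 ± 0.28 with the block (95% interval -1.70 to -0.53; adjusted p = 0.0069). The exact two-sided permutation test gave p = 0.019. Without the block, Syne3 was called in DESeq2 (adjusted p = 0.098), without the filter on low counts (edgeR adjusted p = 0.067), and without replicate 2 at 4.4 mg/ml (edgeR adjusted p = 0.037). It was negative in each replicate, at -1.51, -0.96, and -0.89, and the blocked call was kept whichever replicate was left out (adjusted p = 0.084, 0.056, and 0.019). Syne2, the gene of nesprin-2, had a low of 4.50, a median of 8.22, and a high of 28.5 CPM in suspension and a low of 3.00, a median of 8.02, and a high of 20.1 CPM in collagen. Its log2 change was -0.14 ± 0.45 (95% interval -1.08 to 0.81; edgeR adjusted p = 0.88).

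**Figure D4:**
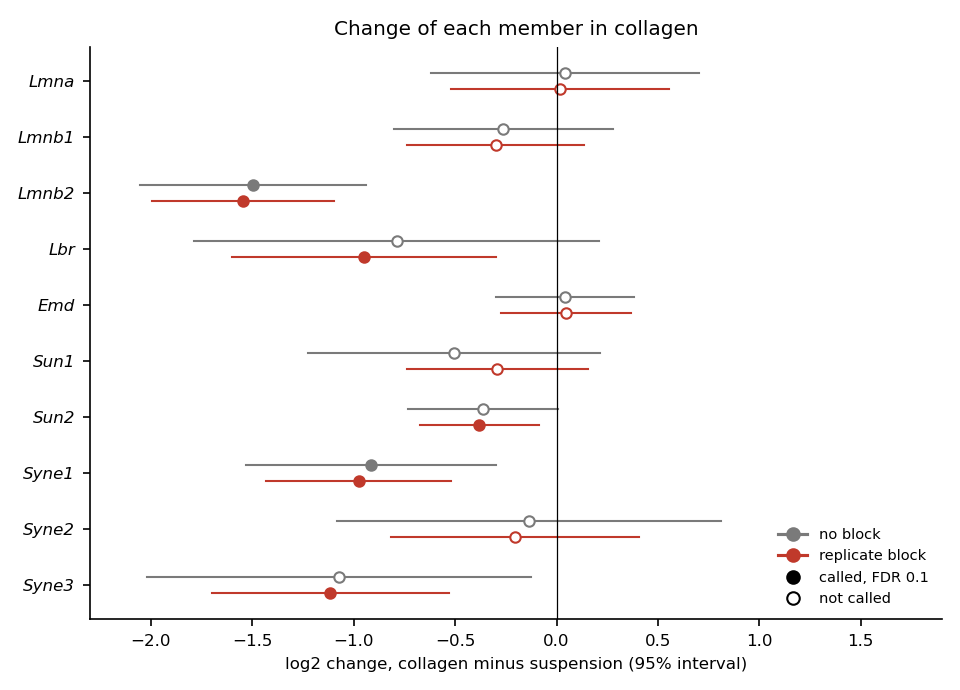
Log2 change of each gene, collagen minus suspension, on the x axis, with 95% intervals, in the edgeR fit without the block (gray) and with the replicate block (red). Filled points were called at an FDR of 0.1: Lmnb2 and Syne1 in both fits, and Lbr, Sun2, and Syne3 with the block.

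Lmnb2 and Syne1 were called in both fits, and Lmna, another lamin gene, was called in neither. The 250 bases before a start site are therefore shown for these genes. No window was taken for Lmnb1, and whether one is listed for it is not described. For 9 of the 10 genes, 14 windows were taken from the RefSeq table (GRCm38.p6). Where it lists several starts, the most upstream is printed, at chr10:80918246-80918495 for Lmnb2, chr10:5550693-5550942 for Syne1, and chr3:88503353-88503602 for Lmna, all on the minus strand and written 5′ to 3′. Capitals mark GGGCGG, the core of GC boxes, on either strand.
Lmnb2: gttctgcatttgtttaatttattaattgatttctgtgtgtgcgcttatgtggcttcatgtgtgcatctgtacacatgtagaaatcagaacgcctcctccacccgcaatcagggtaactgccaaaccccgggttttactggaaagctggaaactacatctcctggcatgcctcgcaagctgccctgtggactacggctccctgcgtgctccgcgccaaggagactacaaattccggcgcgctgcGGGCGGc
Syne1: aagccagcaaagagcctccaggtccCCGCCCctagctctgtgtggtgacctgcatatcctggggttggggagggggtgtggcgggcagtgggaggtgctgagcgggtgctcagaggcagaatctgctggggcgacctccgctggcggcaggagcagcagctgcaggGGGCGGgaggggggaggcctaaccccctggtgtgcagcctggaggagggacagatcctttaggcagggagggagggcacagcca
Lmna: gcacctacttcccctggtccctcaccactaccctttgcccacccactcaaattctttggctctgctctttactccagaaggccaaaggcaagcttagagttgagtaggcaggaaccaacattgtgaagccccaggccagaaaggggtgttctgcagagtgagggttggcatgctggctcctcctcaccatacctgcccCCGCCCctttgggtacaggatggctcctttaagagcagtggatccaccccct
GGGCGG was present at 7 bases before the start of Lmnb2, at 225 and 84 bases before that of Syne1, and at 52 bases before that of Lmna. It stood in 32.7% of the 32851 windows of this length in the table. CCAAT (33.8% of windows), TATAAA (12.4%), and TGANTCA (6.75%) were also searched on both strands and were not found in these 3 windows. The motifs do not overlap each other in these windows. Their GC content was 52.8% for Lmnb2, 68.0% for Syne1, and 56.4% for Lmna.

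The counts of genes called were read against all genes tested. For collagen against suspension, Lmnb2 and Syne1 were called, 2 of 10, and 20.2% of the 13844 genes were called, 12.4% in the lower direction. With the replicate block, 5 of 10 were called, all lower (Lmnb2, Lbr, Sun2, Syne1, and Syne3), beside 34.8% of all genes, 19.3% in the lower direction. None of the 10 was called higher in either fit. With GC and length offsets beside the block, 2566 of all genes were called higher and 2501 (18.1%) lower. The block alone called 2158 higher and 2665 lower, and the fit without either 1077 and 1713. With the offsets and the block, 4 of the 10 were called lower (Lmnb2, Lbr, Syne1, and Syne3). The median log2 change of the 10 genes was -0.43, and that of all genes tested 0.0027. It was -0.34 beside 0.0080 with the block and -0.10 beside 0.010 with GC and length offsets as well. In a test for any difference among the 6 groups, Lmnb2 was the 1 member called, where 4.90% of all genes were, and it was not called without replicate 1, 2, or 3, where 1.29%, 0%, and 0% of all genes were. With the block, Lmnb2, Syne1, and Syne3 were called, 3 of 10, beside 24.3%.

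Comparisons of single densities share the 6 suspension libraries. At 1.7 mg/ml, none of the 10 was called, where 0.0361% of all genes were, and with the block Syne1 was (2.91%). At 2.6 mg/ml, Lmnb2 was called without (7.87%) and with the block (21.6%). At 3.5 mg/ml, Lmnb2 was called (4.90%), and Syne1 and Syne3 joined it with the block (18.4%). At 4.4 mg/ml, Lmnb2 and Syne1 were called (14.8%), and with the block Lbr, Sun2, and Syne3 as well (31.9%). The log2 change of Lmnb2 was -1.10, -1.64, -1.61, and -1.65 from 1.7 to 4.4 mg/ml. That of Syne1 was -1.04, -0.36, -0.83, and -1.43, and that of Lbr -0.65, -0.44, -0.52, and -1.54. Without the block, the calls at 2.6 and 3.5 mg/ml were lost whichever replicate was left out. Without replicates 1, 2, and 3, 9.60%, 0%, and 0.0293% of all genes were called at 2.6 mg/ml, and 0.0218%, 0%, and 0.0146% at 3.5 mg/ml. At 4.4 mg/ml Syne1 alone was called without replicate 1 (11.8%), Lmnb2 alone without replicate 2 (0.751%), and none without replicate 3 (6.92%). With the block, 3 of the 10 were called at 4.4 mg/ml whichever replicate was left out, Lmnb2 and Syne1 each time, with Lbr without replicate 1 and Sun2 without replicate 2 or 3, where 18.6%, 20.2%, and 24.1% of all genes were called. With GC and length offsets beside the block, Syne1 and Syne3 lost their calls at 3.5 mg/ml (17.2% of all genes called), and Sun2 and Syne3 theirs at 4.4 mg/ml (34.3%; adjusted p = 0.36 and 0.11).

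Across the densities themselves, no member passed the test. The linear trend over 1.7 to 4.4 mg/ml called none of the 10, where 0.00722% of all genes were called, and none with the block (1.45%). The densest gel against the loosest called none without (0.00722%) or with the block (1.73%). The slope of Lmnb2 was -0.18 ± 0.16 log2 units per mg/ml (95% interval -0.52 to 0.15; edgeR adjusted p = 0.95), and that of Sun2 -0.16 ± 0.10 (95% interval -0.38 to 0.053; edgeR adjusted p = 0.85). Between 4.4 and 1.7 mg/ml, Sun2 and Sun1 had lower CPM in each of 3 replicates, with differences of -0.47, -0.82, and -0.06 for Sun2 and -0.03, -0.07, and -0.67 for Sun1. With 3 against 3 libraries, the exact two-sided permutation test cannot go below p = 0.1, and it gave p = 0.2 for Sun2 and p = 0.6 for Sun1. For Lmna the intervals of the model spanned both directions, and replicate 2 differed by 1.48 where replicates 1 and 3 differed by -0.86 and -0.58.

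Group and replicate shared the variation unequally between genes. These shares are not corrected for the number of means fitted, which is higher for the 6 groups than for the replicate numbers. Some share, larger for the group, therefore arises without any effect. Of the sum of squares of log2 CPM, the 6 groups held 75.2% for Lmnb2, 50.2% for Syne1, and 49.3% for Sun2. The replicate number held more than the group for Sun1 (66.7% against 7.14%), Syne2 (50.4% against 18.5%), Syne3 (50.0% against 33.4%), Lbr (46.0% against 26.9%), Lmna (33.4% against 5.18%), and Lmnb1 (31.8% against 29.6%). For Lmna, 61.4% belonged to neither, and for Emd 59.2%. Mean CPM of Lbr was 3.39 in replicate 1, 10.3 in replicate 2, and 5.16 in replicate 3, and that of Sun1 was 33.2, 19.1, and 13.1. Macrophage markers also differed by replicate, with sums from 1449 to 2225 CPM in replicate 1 and from 327 to 794 CPM in replicate 3. The part of the mix of cells in these replicate differences was not tested.

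Of 61 other genes of the nuclear envelope and pore, 56 were tested. For collagen against suspension, 3 of 56 were called higher and 6 lower, beside 7.78% and 12.4% of all genes. With the block, 6 were called higher and 14 lower, beside 15.6% and 19.3%. These shares lie near those of all genes. Sun3 and Sun5 have no row in the table used here, and Spag4, Syne4, and Ccdc155 had at most 3, 20, and 3 counts in a library and did not pass the filter. Lrmp, the KASH gene of lymphoid and myeloid cells, had 17.5 ± 11.1 CPM in suspension (SD, n = 6) and 10.6 ± 4.38 CPM in collagen (SD, n = 12). It was called with the block alone (log2 change -0.61, edgeR adjusted p = 0.036), and not without replicate 2 or 3 (adjusted p = 0.18 and 0.20). With GC and length offsets beside the block, Lrmp was not called (log2 change -0.41, edgeR adjusted p = 0.12).

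Of 13 genes listed for lamina-binding inner membrane proteins and their partners, 1 was called higher and 2 lower at 4.4 mg/ml alone. Of all genes, 8.29% were called lower there. For collagen against suspension, 1 was called higher and none lower, with a median log2 change of -0.021. With the block, 1 was called higher and 1 lower, beside 15.6% and 19.3% of all genes. Tor1aip2, which encodes LULL1, an activator of torsin ATPases, rose from 125 ± 29.1 to 233 ± 86.8 CPM (log2 change 0.84 ± 0.16, edgeR adjusted p = 0.0034). Its slope over density was 0.45 log2 units per mg/ml (edgeR adjusted p = 0.31), and with the block it was called at 0.44 (adjusted p = 0.033), a call lost without replicate 1 or 2 (adjusted p = 0.20 and 0.41). Of 5 lamin processing enzymes, Fntb, the beta subunit of the enzyme that farnesylates prelamin A and B-type lamins, fell from 7.42 ± 1.82 to 3.99 ± 2.15 CPM (log2 change -0.93 ± 0.30, edgeR adjusted p = 0.048). Of 5 cytoplasmic partners of nesprins, Plec, the plectin gene, fell from 379 ± 168 to 230.4 ± 104 CPM (log2 change -0.76 ± 0.29, edgeR adjusted p = 0.091). With GC and length offsets beside the block, the change of Plec was -0.087 and was not called (edgeR adjusted p = 0.76). Without the block and replicate 1, it was -0.085 (edgeR adjusted p = 0.90). Of 9 genes that seal and repair the envelope with ESCRT proteins, Ist1 rose from 228 ± 47.0 to 319 ± 80.7 CPM (log2 change 0.47 ± 0.17, edgeR adjusted p = 0.076). With the block, 3 of the 9 were called higher and 1 lower, beside 15.6% and 19.3% of all genes. None of the 4 chromatin tethers Cbx1, Cbx3, Cbx5, and Hdac3 was called without the block, with log2 changes of 0.27, -0.33, -0.46, and -0.34. With the block Hdac3 was (edgeR adjusted p = 0.094), a call lost whichever replicate was left out. That call was also lost with GC and length offsets (edgeR adjusted p = 0.11).

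The 19 genes of the nuclear pore scaffold and basket had 1 higher and 4 lower, beside 7.78% and 12.4% of all genes, and with the block 1 and 7, beside 15.6% and 19.3%, with a median log2 change of -0.23. Nup210, a membrane-spanning pore protein, fell from 60.5 ± 34.0 to 21.5 ± 9.67 CPM (log2 change -1.45 ± 0.27, edgeR adjusted p = 0.0031). Nup188, of the inner ring, fell from 44.8 ± 5.98 to 20.7 ± 5.44 CPM (-1.13 ± 0.18, adjusted p = 0.0011). Nup133, of the outer ring, fell by 0.80 ± 0.21 on the log2 scale (adjusted p = 0.021), and Nup205, also of the inner ring, by 0.49 ± 0.19 (adjusted p = 0.094). Nup50, of the nuclear basket, rose from 68.5 ± 16.3 to 121 ± 29.1 CPM (0.81 ± 0.20, adjusted p = 0.013). Of the 9 genes of these lists called without the block, Nup188 and Nup210 kept the call whichever replicate was left out. Those of Tor1aip2 and Nup50 were lost without replicate 2, that of Nup133 without replicate 2 or 3, and those of Fntb, Plec, Ist1, and Nup205 whichever was left out.

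**Figure D5:**
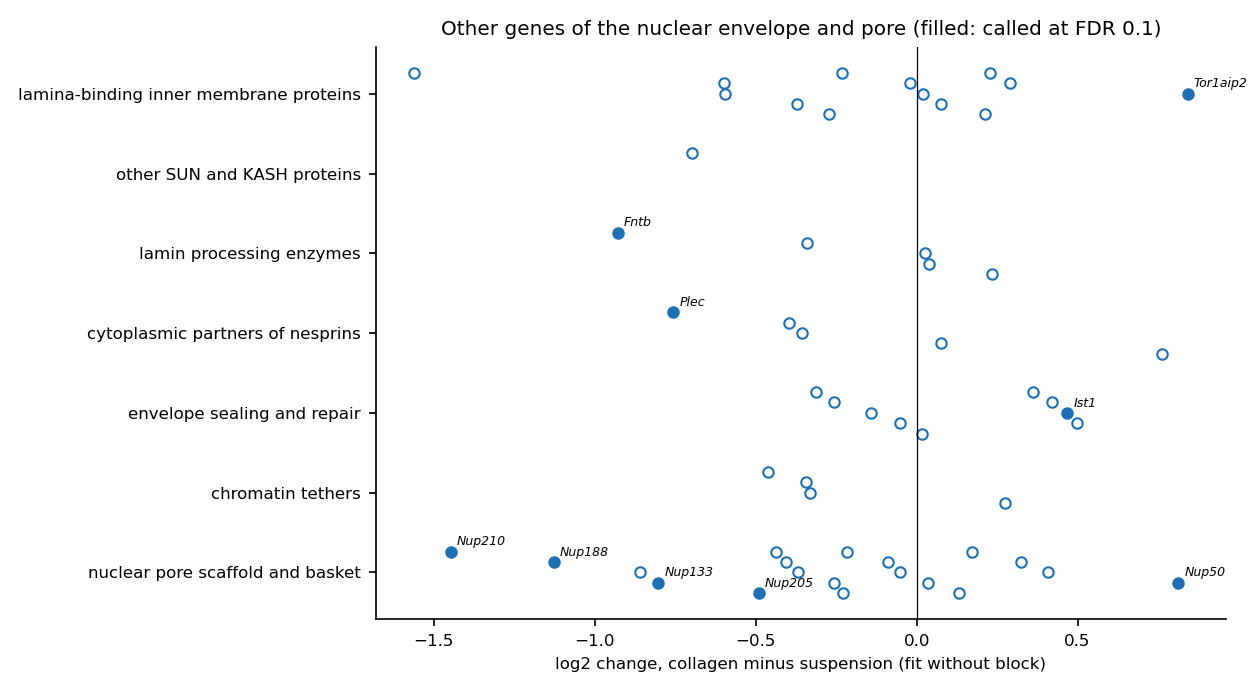
Log2 change, collagen minus suspension, of the 56 tested genes of the nuclear envelope and pore, in 7 lists on the y axis, from the fit without the block. Filled and named points were called at an FDR of 0.1, 3 higher (Tor1aip2, Ist1, Nup50) and 6 lower (Fntb, Plec, Nup133, Nup188, Nup205, Nup210).

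The members did not vary as 1 unit. After the mean of each replicate number was taken off log2 CPM, the highest Pearson correlations over the 18 libraries were 0.79 between Lbr and Syne1, 0.76 between Lmnb2 and Syne3, 0.71 between Sun1 and Syne1, and 0.71 between Lmna and Emd. The lowest were -0.66 between Emd and Syne2 and -0.61 between Emd and Syne1, and Lmna and Syne1 had -0.46. Sun1 and Sun2, which share the SUN domain, had 0.20, and Lmnb1 and Lmnb2 0.34. These values are descriptions, since the libraries share groups, lanes, and depth. The genes most like Lmna were Eif4ebp1 (r = 0.95), Hmga1 (0.90), and Pld3 (0.90), and those most like Sun2 were S1pr4 (0.95), Spsb2 (0.92), and Ncapd2 (0.92). Lmnb1 was closest to Tars2 (0.87), Slc1a5 (0.83), and Cdc6 (0.82), and Lbr to Efnb1 (0.91), Homez (0.90), and Wdr76 (0.89). Of these, Efnb1 and Cdc6 were the lowest, with mean levels of 1.25 and 2.46 CPM.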

How the data were processed

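RNA was measured in 18 libraries, 3 replicates of 6 groups. Per the labels, libraries were made with a stranded mRNA kit and reads were aligned with STAR 2.7.0f to GRCm38. The authors deposited raw counts for each Ensembl gene ID, and the study's methods name RSEM for TPM values only, so the tool behind these counts is not given in the sources used here. Groups and replicate numbers came from the sample labels. The labels call the replicates biological, and the library names give a separate date for each. Whether they came from separate mice is not given, so p-values measure the spread between these samples. The members and gene lists were chosen with earlier results of these data known.

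Counts were analyzed in R 4.3.3 with edgeR 4.0.16 (filterByExpr, TMM, quasi-likelihood test, 1 fit of 18 libraries, FDR 0.1, the threshold in the study's methods). DESeq2 1.42.0, the study's tool, was an alternative. Adjusted p-values are Benjamini-Hochberg over all 13844 genes tested. SEs follow from each F value and log2 change. CPM are per TMM-scaled library total, and log2 CPM had a prior count of 2. Permutation tests were run in scipy 1.17.1 on log2 CPM of all 10 members. Their p-values are not adjusted for the number of members, and the libraries were exchanged without regard to the replicate number. Exon lengths, GC content, and positions came from GENCODE annotation of GRCm38, which matched 29866 of 29875 genes. edgeR's coefficient of biological variation came to 49.0% without and 33.1% with the block. A floor of 3 counts equals 0.107 to 0.230 CPM, which covers counting error only. Fits were tested on counts simulated with the same spread for all genes and no effect of the replicate. That test cannot decide between the fits without and with the block.

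The replicate numbers pair the libraries because same-numbered libraries share a date and a lane in their names. Deviations from group means correlated with a mean r of 0.43 over 45 same-numbered pairs (-0.15 to 0.85) and of -0.21 over 90 other pairs. Taking off the mean of 3 libraries a group makes the second value negative when the first is positive, so it is not separate evidence. Alternatives were the replicate block, DESeq2, other size factors, no filter, GC and length offsets (loess span 0.5) with the block, only the libraries compared, an FDR of 0.05, and leaving out replicates or replicate 2 at 4.4 mg/ml. Repeats of the blocked fit and of the other envelope genes were added after seeing the data. All 10 members were named. Of the lists, genes called in collagen against suspension or the trend were named, up to 4 a list and direction by smallest p, and the defining genes of lists with no call. For Lmna, Lmnb1, Lbr, and Sun2, the 3 genes with the highest correlation were named as well. Of the genes called with the block alone, Lrmp and Hdac3 were named after their values were seen, and the others were not named.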

Additional observations from a re-analysis of the deposited data

Results flagged for a closer look

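In 2 cases a suspension library stood apart from the other 5 by Dixon's test, applied to log2 CPM at both ends of each of the 10 members over the 6 suspension libraries. Chance alone passes about 1 in 20 groups. Lmnb1 had 24.3 CPM in replicate 2 titled plus CCL19, where the next library had 15.5 CPM. Syne1 had 100.4 CPM in replicate 2 titled without CCL19, where the next library had 45.8 CPM. That library also had the highest Lmnb2 of the 18, at 19.9 CPM, and the highest Syne2, at 28.5 CPM.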

How the results depend on the processing

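Counts here are of the 10 members. Replicate block: with it, 3 were called for any difference, 5 for collagen against suspension, and 1, 3, and 5 at 1.7, 3.5, and 4.4 mg/ml, against 1, 2, 0, 1, and 2 without it, and the block changed no call at 2.6 mg/ml, in the trend, or between 4.4 and 1.7 mg/ml. DESeq2 called 2 for any difference (14.6% of all genes) and 3 for collagen against suspension (24.7%), Syne3 among them, and with the block 5, 5, 2, 3, and 5 in the order above, where 38.3%, 38.9%, 7.91%, 23.1%, and 36.3% of all genes were called. GC and length offsets with the block gave 3 for any difference, 4 for collagen against suspension, and 1, 2, 1, and 3 from the loosest to the densest gel, beside 26.2%, 36.6%, 3.78%, 24.4%, 17.2%, and 34.3% of all genes. Without the filter on low counts, 2 were called for any difference (6.67%). At an FDR of 0.05 the counts were 0 for any difference, 0 at 3.5 mg/ml, and 1 in the densest gel. Shares of all genes at that FDR were not computed. Leaving out 1 replicate, or replicate 2 at 4.4 mg/ml, gave 0 to 1 for any difference, 1 to 3 for collagen against suspension, 0 to 1 at both 2.6 and 3.5 mg/ml, and 0 to 2 in the densest gel. Of all genes, these fits called 0% to 4.26%, 4.47% to 20.6%, 0% to 9.60%, 0% to 5.44%, and 0.751% to 11.8% in that order. The trend and 4.4 against 1.7 mg/ml had 0 in each alternative.

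Of 510 repeats of a member's log2 change, 449 kept direction and side of the threshold, 20 gained a call, 15 lost it, and 26 changed sign, 0 of them with a call in the repeat. With GC and length offsets and the block, Sun2 went to 0.003 and Syne2 to 0.001 for collagen against suspension. For Syne3 between 4.4 and 1.7 mg/ml, the sign changed to -0.085 with the block, -0.029 in DESeq2 with the block, and -0.043 with the offsets. Leaving out replicates gave ranges across 0 for these members. Collagen against suspension: Lmna -0.142 to 0.158, Emd -0.036 to 0.154, and Sun1 -0.706 to 0.143. For 4.4 mg/ml against suspension, they were -0.495 to 0.806 for Lmna, -0.065 to 0.508 for Lmnb1, and -0.137 to 0.303 for Emd. For the density trend, they were -0.253 to 0.258 for Lmna, -0.465 to 0.002 for Lmnb2, -0.092 to 0.090 for Emd, and -0.433 to 0.061 for Syne3. For 4.4 against 1.7 mg/ml, they were -0.754 to 0.782 for Lmna, -0.389 to 0.111 for Emd, -1.069 to 0.105 for Syne2, and -1.082 to 0.290 for Syne3. The causes were not tested. Depth limits Lbr and Syne3 most, whose lowest libraries held 7 and 9 counts.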
